A study of Mus musculus with 4 samples.

Results

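The genes described here are 8 genes of the node, the notochord and left-right patterning: Noto, Foxa1, Foxa2, Shh, Foxj1, Dnah11, Dand5 and Pkd1l1. They were taken by symbol from a table of read counts for 24421 genes in 4 libraries of mouse embryos. Of the 8, 7 had a row in the table and all 7 passed a minimum of 10 reads in at least 1 library, which 14393 genes passed in all. Pkd1l1, which encodes a polycystin of the node cilia, had no row, so its level was not analysed here. All embryos were of the ICR strain. Wild-type (WT) embryos were collected at embryonic day 7.5 (E7.5 WT, 1 library) and embryonic day 8.5 (E8.5 WT, 1 library), and Ddx6 -/- embryos at E8.5 gave 2 libraries, called KO1 and KO2. The Ddx6 -/- allele lacks a floxed exon that was removed with CAG-Cre, a line that deletes in all tissues. Per the study's results, KO1 pooled 1 embryo from before head-fold formation and 1 from after it, whereas KO2 held only embryos from before it. DDX6 is an RNA helicase that acts in mRNA repression and decay.

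The node is a small pit at the front of the primitive streak in the gastrulating embryo. Its cells give rise to the notochord, the midline rod that signals to the neural tube above it and the gut below it. Cells lining the node carry motile cilia whose beating drives fluid leftward, and sensory cilia at the node's edge read this flow and lower Dand5 on the left, which frees Nodal to act there. FOXJ1 and NOTO are transcription factors needed for the motile cilia, FOXA2 is needed to form the node and notochord, and SHH is the signal that the notochord then sends. All of these cells are a small share of a whole embryo. In such bulk libraries, fewer cells of a type and less RNA per cell cannot be told apart.

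The libraries held 8198402 to 12562640 reads assigned to genes, and the 7 genes took 0.00812% to 0.0135% of them. Ddx6 itself had 706 reads in KO1 and 929 in KO2, where the WT libraries had 2943 at E7.5 and 5715 at E8.5, lower in both KO libraries than at either WT stage. The fold between 2 libraries comes with an exact binomial 95% interval from their reads, and 2 libraries are called apart where the interval of their log2 difference excludes 0. KO1 and KO2 differed in tissue markers. Summed over 8 trophoblast markers, the level was 42.0 CPM (counts scaled to a common library size, with TMM factors that correct for composition) in the E7.5 WT library and 1.87 CPM in the E8.5 WT library, with 8.81 CPM in KO1 and 512 CPM in KO2. The most abundant were Prl3d1, Prl2c2 and Rhox6, and Tpbpa, another of the 8, had 0 reads in every library. Summed over 8 uterine and decidual markers, led by Spink1, Prl8a2 and Dcn, it was 286 CPM in E7.5 WT and 264 CPM in KO2, and lower in KO1 at 152 CPM and E8.5 WT at 110 CPM. The decidual gene Prl8a2 was at 111 CPM and 118 CPM in the first pair and at 7.62 CPM and 2.12 CPM in the other, and the uterine gland gene Cxcl15 had 0 reads in every library. Spink1 made up most of each sum, at 172 CPM in E7.5 WT, 144 CPM in KO2, 142 CPM in KO1 and 104 CPM in E8.5 WT. The sums are therefore mostly a level of Spink1, whose tissue of origin was not tested, and are not read as an amount of maternal tissue. Only 4 of these 8 markers passed the count minimum. Of them, Ltf went the other way, with 10 reads in E8.5 WT and 0 to 1 in each other library. Per the study's methods, E8.5 embryos were genotyped from extraembryonic tissue or yolk sac, and how much of such tissue stayed in each library is not given. The part of these tissues in the values below was not tested.

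The regulatory sequence of Noto and Foxa2 is shown because these genes, both active in the node, had almost the same profile over the 4 libraries. That of Foxa1 is shown because it held the only forkhead motif found among the genes searched, which did not include Foxj1 or Shh. The 250 bases before the start site, from RefSeq on build GRCm38.p6, are written 5′ to 3′ on the strand of the gene, for Noto at chr6:85423636-85423885 (plus strand) and for the first of 3 start sites of Foxa2 at chr2:148046970-148047219 (minus strand). The Foxa1 line gives the motif in capitals with 20 bases on each side, at chr12:57546226-57546272 (minus strand), where the motif begins 141 bases before the RefSeq start site. GENCODE places the start of Foxa1 further upstream, so this stretch lies inside the gene span given below (chr12:57540628-57546916).
Noto: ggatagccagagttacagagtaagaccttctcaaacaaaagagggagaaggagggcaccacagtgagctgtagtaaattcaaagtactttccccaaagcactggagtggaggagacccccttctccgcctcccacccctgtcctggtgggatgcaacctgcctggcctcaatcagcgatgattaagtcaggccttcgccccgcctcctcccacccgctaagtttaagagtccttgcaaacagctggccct
Foxa2: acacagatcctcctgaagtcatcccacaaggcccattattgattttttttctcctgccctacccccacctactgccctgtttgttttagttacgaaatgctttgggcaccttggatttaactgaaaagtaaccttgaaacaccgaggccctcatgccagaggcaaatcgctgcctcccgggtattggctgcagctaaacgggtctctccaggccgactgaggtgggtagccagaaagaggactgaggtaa
Foxa1: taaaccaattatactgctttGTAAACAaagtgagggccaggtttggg
The letters searched were TGTTTAC on both strands (GTAAACA on the other), a core that forkhead factors such as FOXA and FOXJ proteins bind, in windows of 300 bases around each start. Promoters were matched for 6 of the 8 genes, with 8 windows in all, and 1 of these held the motif, against 3.65% of the 32851 windows in the table. Foxj1 and Shh had no promoter entry and were not searched. A match is a description of letters and not a bound site.

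Foxj1, the master regulator of motile cilia, showed the clearest difference. It lies on chr11:116330704-116335399 (minus strand, GRCm38) and gave 661 reads at E7.5 and 67 at E8.5 in WT embryos, and 233 in KO1 and 568 in KO2, or 55.6, 5.45, 27.7 and 46.6 CPM. E8.5 WT was the low library, and both KO libraries lay between it and E7.5 WT, each library apart from the next. Foxj1 was 5.09-fold higher in KO1 and 8.55-fold higher in KO2 than in E8.5 WT, with a mean log2 difference of 2.68 ± 0.53 (SD, n = 2 KO libraries). The interval of the log2 difference, which covers counting error only, was 1.95 to 2.76 in KO1 and 2.73 to 3.48 in KO2. Against E7.5 WT, the log2 difference was -0.997 in KO1 and -0.25 in KO2. In WT embryos Foxj1 was 10.2-fold lower at E8.5 than at E7.5, with 1 library on each side and no test.

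Foxj1 was the only one of the 7 genes past a log2 difference of 1 in both KO libraries against E8.5 WT, 1 of 7 higher where 3.44% of all genes tested were higher, and none of 7 was lower where 1.79% were. The quasi-likelihood F-test of edgeR over all genes, whose estimate of spread rests on the pair of KO libraries, gave Foxj1 an unadjusted p of 0.00318 and a Benjamini-Hochberg adjusted p of 0.666. That test called 0 of the 14393 genes (0.0%), with 1052 at an unadjusted p under 0.05. DESeq2, another count model, called 31 genes (0.215%), among them Foxj1 with a log2 difference of 2.77 (SE 0.51) and an adjusted p of 7.98e-05. Over the edgeR alternatives the adjusted p of Foxj1 ran from 0.183 to 0.666. The spread between WT libraries of a stage is unknown, and both comparisons of KO with WT rest on 1 library of each stage.

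**Figure D1:**
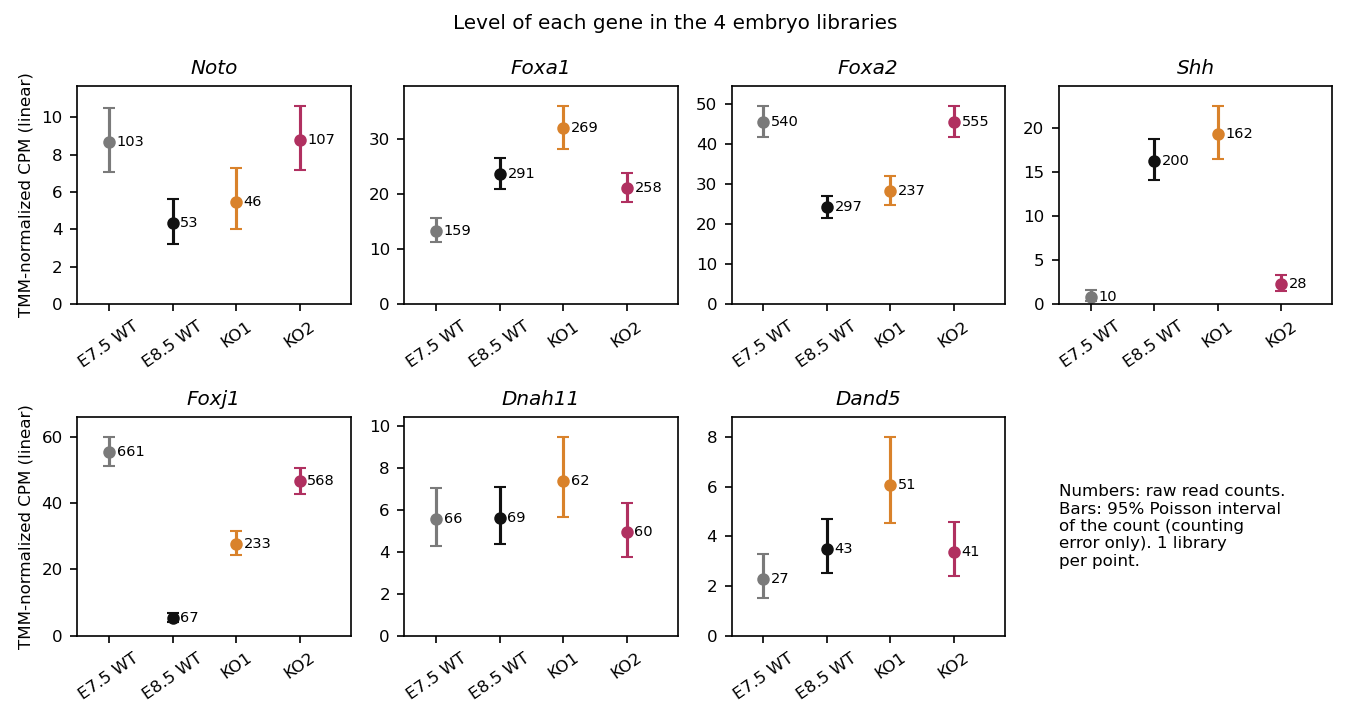
TMM-normalized CPM (linear axis from 0, scaled per gene) of the 7 genes in the WT and KO libraries, 1 point per library, with raw reads beside each point and 95% Poisson intervals of the count. Foxj1 was lowest in E8.5 WT at 67 reads, Shh was high in E8.5 WT and KO1 and low in E7.5 WT and KO2, and Dnah11 stayed between 60 and 69 reads.

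A list of genes that motile cilia need covered axonemal dyneins, radial spokes, docking and assembly proteins and RFX regulators. Part of this list was higher in the KO libraries. Of 39 listed genes 37 passed the count minimum, and 11 of these were past a log2 difference of 1 above E8.5 WT in both KO libraries, 29.7% of the genes kept against 3.44% of all genes. None was past the threshold below E8.5 WT in both. The 11 were Ccdc114, Drc1, Cfap53, Cfap126, Cfap52, Rsph1, Rsph4a, Rsph9, Tekt2, Tppp3 and Nme5, and for each of them the counting interval lay above 0 in both libraries. None of the 11 is an axonemal dynein, a dynein assembly factor or an RFX regulator. The dynein Dnah5 was past the threshold in KO1 only, and the assembly factor Zmynd10 in KO2 only. Among all 37, at any size of difference, the interval lay above 0 in both for 12 genes and below 0 in both for 2. The median over the 37 genes was 0.82 in KO1 and 0.48 in KO2, beside -0.01 and -0.00 over all genes. edgeR called none of the 37 after adjustment, with 7 at an unadjusted p under 0.05, and DESeq2 called none.

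Counts of these genes were low. Tekt2, a protein of the axonemal microtubules, gave 37 reads at E7.5 and 15 at E8.5 in WT embryos, and 46 in KO1 and 74 in KO2, log2 differences of 2.02 and 2.16 against E8.5 WT. Rsph4a, a radial spoke head protein, gave 26, 10, 27 and 54 reads in the same order, log2 differences of 1.77 and 2.22. For both genes E8.5 WT was the lowest library. Drc1, of the nexin-dynein regulatory complex, gave 48, 8, 23 and 31 reads, log2 differences of 1.81 and 1.71. Nme5, a protein associated with radial spokes, gave 33, 8, 21 and 30 reads, log2 differences of 1.69 and 1.67. Both were again lowest in E8.5 WT, and their KO levels did not exceed E7.5 WT. The 11 genes had 3 to 49 reads in E8.5 WT. The main count minimum could be met in any 1 library. Genes such as Drc1 and Nme5, at 8 reads each in E8.5 WT, were below it there and were kept through other libraries. The share of the list past the threshold therefore includes genes kept for their reads outside E8.5 WT. The same minimum was applied to all genes. With a minimum of 50 reads in any 1 library, 6 of 17 genes were past the threshold where 2.17% of all genes were. All 6 met that minimum only through libraries other than E8.5 WT, so this count is no check on low reads in E8.5 WT. KO1 taken alone gave 13 of 37 genes and KO2 taken alone 12, where 4.97% and 9.41% of all genes were higher.

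In WT embryos, 13 of the 37 genes were lower at E8.5 than at E7.5 by a log2 difference over 1, where 7.82% of all genes were, and 2 (Hydin and Rfx3) were higher, where 12.2% were. This comparison shares the E8.5 WT library with the one above. Against E7.5 WT, 1 motile cilia gene (Dnaic1) was higher in both KO libraries and 4 (Dnali1, Dnaaf1, Ccdc151 and Tekt4) were lower, with backgrounds of 6.91% and 2.7%. The genes of intraflagellar transport and the ciliary base, which motile and primary cilia both use, were close to E8.5 WT in both KO libraries. None of the 21 was past the threshold in either direction, and their log2 differences against E8.5 WT ran from -0.23 to 0.33 in KO1 and from -0.40 to 0.28 in KO2. The plot of Foxj1 and the motile cilia genes shows the spread among genes.

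**Figure D2:**
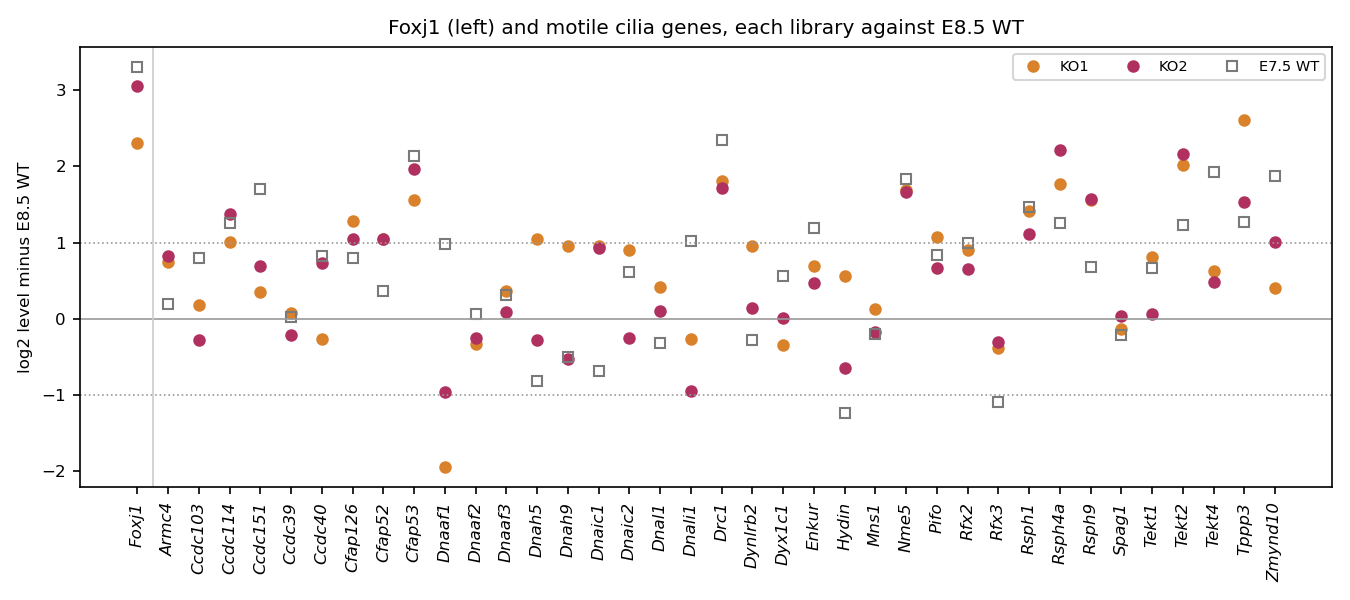
Log2 level minus E8.5 WT of Foxj1 (left of the line) and the 37 motile cilia genes past the count minimum, in KO1, KO2 (filled circles) and E7.5 WT (open squares), with dotted lines at differences of 1 and -1. The 11 genes past 1 in both KO libraries stand beside others near 0, and Dnaaf1 lies at -1.96 in KO1 on 1 read.

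Dnah11, the outer-arm dynein heavy chain of node cilia, passed the threshold in no comparison. Located on chr12:117877982-118199043 (minus strand), it gave 66 reads at E7.5 and 69 at E8.5 in WT embryos, and 62 in KO1 and 60 in KO2, or 5.55, 5.61, 7.38 and 4.92 CPM. No library was apart from the next in order of level, and of the ends of that order KO2 was apart from KO1, with a log2 difference of -0.57 (interval -1.12 to -0.05). The log2 difference against E8.5 WT was 0.38 in KO1 (interval -0.12 to 0.91) and -0.18 in KO2 (interval -0.71 to 0.33), and the WT stages differed by 0.02 (interval -0.49 to 0.53). Per kilobase of exon it was the lowest of the 7 genes in E8.5 WT, at 0.388 CPM per kb, where Foxa2 had 10.2 and Foxj1 had 2.08.

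Noto and Foxa2 followed one another over the 4 libraries. Noto (chr6:85423886-85428877, plus strand) gave 103 reads at E7.5 and 53 at E8.5 in WT embryos, and 46 in KO1 and 107 in KO2, or 8.66, 4.31, 5.48 and 8.78 CPM. Foxa2 (chr2:148042877-148046969, minus strand) gave 540, 297, 237 and 555 reads, or 45.4, 24.2, 28.2 and 45.5 CPM. For both genes KO2 was not apart from E7.5 WT, nor KO1 from E8.5 WT, and the pair at the E7.5 level was apart from the other. Noto was 0.33 higher than E8.5 WT on the log2 scale in KO1 (interval -0.26 to 0.94) and 0.996 in KO2 (interval 0.54 to 1.53), the latter just under the threshold. Foxa2 was 0.22 higher in KO1 (interval -0.03 to 0.48) and 0.91 in KO2 (interval 0.71 to 1.12). The means were 0.66 ± 0.47 for Noto and 0.57 ± 0.49 for Foxa2 (SD, n = 2 KO libraries), with edgeR adjusted p of 0.690 and 0.674.

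Among the 12596 genes that averaged 20 reads or more per library, Foxa2 was the nearest to Noto, at a Euclidean distance of 0.08 between their centred log2 levels over the 4 libraries. With 4 libraries such likeness is common, since 616 genes lay within 0.5 of Noto and 745 within 0.5 of Foxa2. AI661453 and Tnk1 came next for Noto, and Atp2a1 and Cd68 were the nearest to Foxa2, with Noto after them. Foxa2 is also expressed in definitive endoderm. The 8 definitive endoderm markers, of which Cldn6, Epcam and Trh were the most abundant, had median log2 differences against E8.5 WT of 0.41 in KO1 and 1.06 in KO2, and 2 of them, Cer1 and Trh, were called higher in both, where 3.44% of all genes were, and 1 (Nepn) lower, where 1.79% were. Trh gave 1003 reads at E7.5 and 240 at E8.5 in WT embryos, and 857 in KO1 and 2865 in KO2. Their part in the Foxa2 levels was not tested.

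Shh separated the KO libraries from each other. It lies on chr5:28456815-28467256 (minus strand) and gave 10 reads at E7.5 and 200 at E8.5 in WT embryos, and 162 in KO1 and 28 in KO2, or 0.841, 16.3, 19.3 and 2.30 CPM. KO1 and E8.5 WT were high and not apart, and KO2 and E7.5 WT were low and apart from each other. KO2 was 8.40-fold lower than KO1, and Shh was the only one of the 7 genes past the threshold between the KO libraries, 1 of 7 lower in KO2 where 4.89% of all genes were and 0 higher where 5.99% were. The mean difference of the KO libraries from E8.5 WT was therefore -1.24 ± 2.104 on the log2 scale (SD, n = 2), a spread wider than the difference, with an edgeR adjusted p of 0.885.

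Against E7.5 WT, Shh was higher in both KO libraries, by 4.26 on the log2 scale in KO1 and 1.28 in KO2, 1 of 7 genes where 6.91% of all genes were. In the 2 WT libraries it was 19.4-fold higher at E8.5 than at E7.5 (log2 interval 3.37 to 5.36). For KO against E7.5 WT, edgeR gave Shh an adjusted p of 0.259 and called 0 of 14393 genes (0.0%, with 3511 at an unadjusted p under 0.05). DESeq2 called 728 genes (6.43% of those it gave an adjusted p), and gave Shh a log2 difference of 3.65 (SE 1.19) and an adjusted p of 0.0376. Only 5 of the 12596 genes lay within 0.5 of the Shh profile, the nearest being Adgrl4 (0.10), Robo2 (0.27) and Mrc1 (0.42). Robo2, a receptor for SLIT guidance signals, gave 16 reads at E7.5 and 255 at E8.5 in WT embryos, and 201 in KO1 and 33 in KO2.

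**Figure D3:**
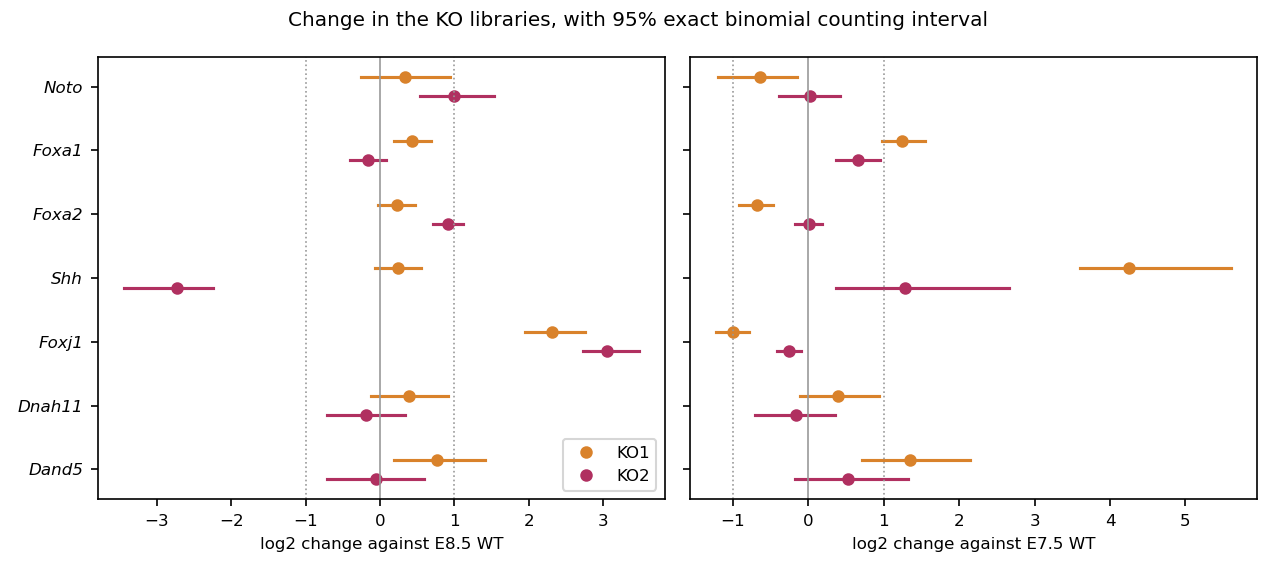
Log2 difference of KO1 and KO2 from E8.5 WT (left) and from E7.5 WT (right) for the 7 genes, each point 1 library and each bar the exact binomial 95% counting interval, with dotted lines at 1 and -1. Foxj1 lies past 1 in both KO libraries on the left (2.31 and 3.05), and Shh lies near 0 in KO1 (0.24) and far below in KO2 (-2.73).

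The receptors, transcription factors and targets of the hedgehog pathway were set beside Shh. Of 19 listed genes 17 passed the count minimum, and none was past the threshold against E8.5 WT in both KO libraries in either direction. Their median log2 difference was -0.06 in KO1 and -0.73 in KO2, and all 17 were below E8.5 WT in KO2, where 50.1% of all genes were, for 16 of them with the counting interval below 0. In KO2 alone, 5 were lower by over 1, where 5.91% of all genes were, and these are named for their values: Ptch1 (the SHH receptor and a target), Boc (a coreceptor), Gli1 (a factor that SHH induces), Nkx2-2 and Nkx6-1 (ventral neural tube factors). In KO1 alone, 0 of the 17 were lower by over 1, where 3.31% of all genes were. Gli1 gave 109 reads at E7.5 and 583 at E8.5 in WT embryos, and 244 in KO1 and 158 in KO2. Ptch1 gave 582, 2765, 1537 and 1316 reads in the same order. Both were highest in E8.5 WT and lowest in E7.5 WT. In WT embryos 10 of the 17 were higher at E8.5 than at E7.5, where 12.2% of all genes were. edgeR called none of the 17 in KO against E8.5 WT.

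Foxa1, a forkhead factor of the notochord, floor plate and endoderm, differed less. It lies on chr12:57540628-57546916 (minus strand) and gave 159 reads at E7.5 and 291 at E8.5 in WT embryos, and 269 in KO1 and 258 in KO2, or 13.4, 23.7, 32.0 and 21.2 CPM. E7.5 WT was the lowest library and KO1 the highest, both apart from the rest, and E8.5 WT and KO2 were not apart. The log2 difference against E8.5 WT was 0.43 in KO1 (interval 0.19 to 0.68) and -0.16 in KO2 (interval -0.41 to 0.09), a mean of 0.14 ± 0.42 (SD, n = 2). Its nearest profiles were Lrrk1, Cobl and 1810011O10Rik, among 1094 genes within 0.5. Unlike Foxa2, it was above E7.5 WT in both KO libraries, by 1.25 and 0.66 on the log2 scale, with an edgeR p of 0.0477 before adjustment.

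Dand5, the secreted NODAL antagonist at the edge of the node, was a low gene in every library. It lies on chr8:84815405-84822823 (minus strand) and gave 27 reads at E7.5 and 43 at E8.5 in WT embryos, and 51 in KO1 and 41 in KO2, or 2.27, 3.50, 6.07 and 3.36 CPM. KO1 was the one library apart from its neighbour in order of level. The log2 difference against E8.5 WT was 0.77 in KO1 (interval 0.18 to 1.42) and -0.05 in KO2 (interval -0.71 to 0.60), with a mean of 0.36 ± 0.58 (SD, n = 2) and an edgeR adjusted p of 0.837. Its nearest profiles were Marveld1, Lhfpl2 and Bicc1. Of 17 genes in the Nodal cascade, 14 passed the minimum and 2 were higher in both KO libraries, Nodal and Cfc1, against 3.44% of all genes, and none was lower by that measure. Cfc1, the NODAL coreceptor Cryptic, gave 151 reads at E7.5 and 159 at E8.5 in WT embryos, and 383 in KO1 and 486 in KO2, so both KO libraries lay above both WT libraries. Above E8.5 WT its log2 difference was 1.80 for KO1 and 1.61 for KO2, with an edgeR p of 0.0017 before adjustment.

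Few of the further markers of node and notochord were called. Of 12 listed genes 11 passed the minimum (Sec14l3 had 1 read in each library), with median log2 differences against E8.5 WT of 0.25 in KO1 and 0.22 in KO2. Chrd, a BMP antagonist of the node, was higher in both KO libraries and Col2a1, a cartilage-type collagen also made by the notochord and its sheath, was lower in both. These are 1 of 11 in each direction, where 3.44% of all genes were higher and 1.79% lower. Chrd gave 345 reads at E7.5 and 77 at E8.5 in WT embryos, and 151 in KO1 and 541 in KO2. Col2a1 gave 288 at E7.5 and 1317 at E8.5 in WT embryos, and 386 in KO1 and 353 in KO2, log2 differences of -1.22 and -1.88. For Col2a1 the KO libraries lay nearer to E7.5 WT, and for Chrd KO2 was above both WT libraries. In the plot of gene lists the spread of this list was wide in KO2, from -2.102 (Foxd4) to 3.73 (Plet1). Plet1 gave 234 reads at E7.5 and 82 at E8.5 in WT embryos, and 67 in KO1 and 1105 in KO2, the library with the most trophoblast marker RNA. The part of that tissue in its level was not tested.

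**Figure D4:**
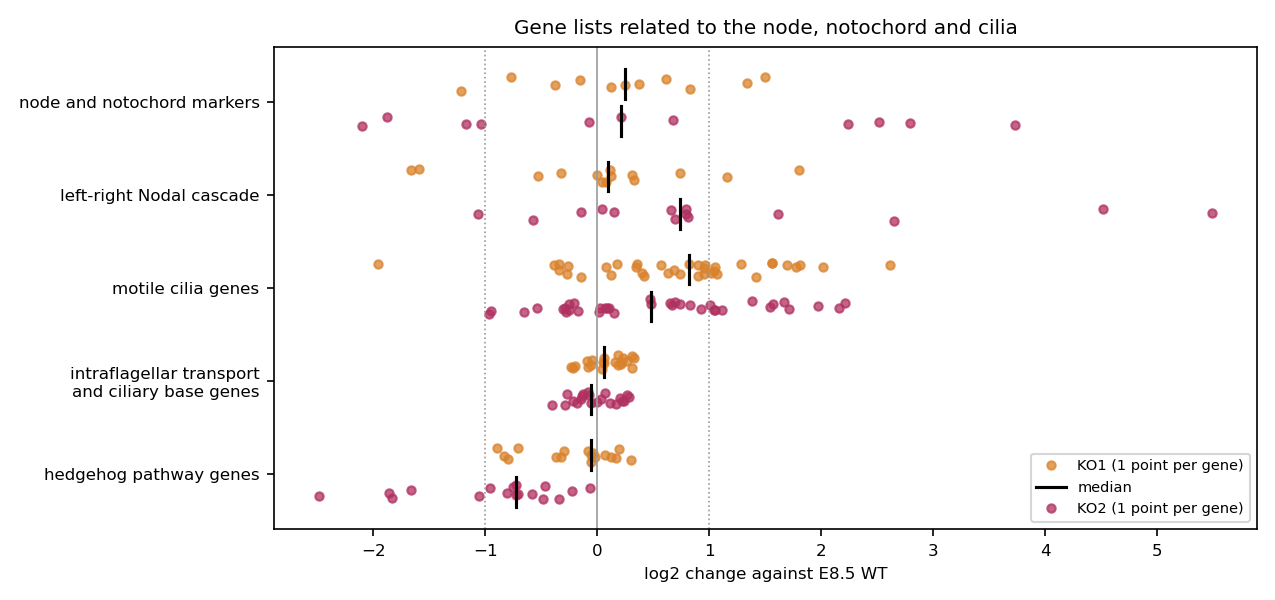
Log2 difference from E8.5 WT of each gene in 5 lists related to the node, notochord and cilia, in KO1 and KO2, 1 point per gene (vertical scatter has no meaning), with the median as a black bar and dotted lines at 1 and -1. The motile cilia genes have medians of 0.82 and 0.48, the intraflagellar transport genes lie between -0.40 and 0.33, and the hedgehog genes have medians of -0.06 and -0.73.

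Among the other markers checked, 3 of 10 visceral endoderm markers (Apoa1, Apom and Rbp4) were past the threshold below E8.5 WT in KO1 and KO2 alike, where 1.79% of all genes were, and the summed level of the 10, led by Apob, Cubn and Apoa1, was 7435 CPM at E7.5 and 7415 at E8.5 in WT embryos, and 4406 in KO1 and 4244 in KO2. Visceral endoderm expresses Foxa1 and Foxa2, and its part in the levels of these genes was not tested. The order of levels over the libraries thus differed between the 7 genes. Foxj1 ran from E7.5 WT through KO2 and KO1 down to E8.5 WT, Shh ran from KO1 and E8.5 WT through KO2 down to E7.5 WT, and the profiles of these 2 genes were the farthest apart among the 7, at a distance of 5.81.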

How the data were processed

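Polyadenylated RNA of embryos was sequenced from stranded libraries. The authors trimmed reads with Cutadapt 2.8, checked them with FastQC 0.11.7, aligned them to mm10 with HISAT2 2.1.0 and SAMtools 1.9, and deposited the counts that featureCounts 2.0.0 gave per gene, unnormalized and strand-specific. No overlap on the same strand was annotated for the 7 genes.

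From these counts, TMM factors were computed over the whole table with edgeR 4.0.16 in R 4.3.3. Genes with at least 10 counts in 1 library were kept, and log2 CPM was computed with a prior count of 2, which understates the change of low genes. A gene was called when both KO libraries differed from a WT library by over 1 on the log2 scale in the same direction. Intervals are exact (Clopper-Pearson, 95%, and Poisson in the plot of levels). Folds and intervals use the reads without the prior count, so a log2 difference can lie slightly off the log2 of the fold beside it. Since PCR copies were counted as reads, intervals cover counting error only. The test was edgeR's quasi-likelihood F-test over the 4 libraries in 3 groups, with Benjamini-Hochberg adjustment, and DESeq2 1.42.0 was the alternative. The KO libraries were pools of different embryos that differed in stage, and p-values measure the spread between these 2 pools. Scripts were tested on simulated data.

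The genes and lists were chosen with earlier results of these data known. From each list, up to 4 genes per direction were named, those called in both KO libraries against E8.5 WT with the largest change in the library where it was smaller, and for lists of other tissues the 3 most abundant. For each of the 7 genes the 3 nearest profiles were named. For Foxj1 they were Hspa1a, Sqrdl and Sertm1, with 0 genes within 0.5. For Dnah11 they were Tigd5, 4930452B06Rik and Fbln1, with 2891 genes within 0.5. Genes named outside this rule, such as the hedgehog genes of KO2, were chosen after their values were seen. Other alternatives were another scaling, prior count, minimum and threshold, and leaving out either KO library. The further settings for the motile cilia list were chosen after seeing the data. Positions and exon lengths are from GENCODE M21 (GRCm38), promoters from RefSeq.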

Additional observations from a re-analysis of the deposited data

How the results depend on the processing

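Of 82 values recomputed under another setting, 77 were rated as unmoved and 5 moved. Counts were rated unmoved if equal or nearly so, and the mean log2 difference of a gene if it stayed within the SD of the KO libraries. Leaving out 1 of 2 KO libraries always keeps the mean within that SD, so those gene values could not be rated as moved. Without KO1 the sign changed for Foxa1 (0.14 to -0.16), Dnah11 (0.10 to -0.18) and Dand5 (0.36 to -0.05), and without KO2 for Shh (-1.24 to 0.24). Noto, Foxa2 and Foxj1 kept their sign. With a threshold of 2 the count of genes higher in both KO libraries than E7.5 WT went from 1 to 0. DESeq2 placed 1 of the 7 genes (Foxj1) past an adjusted p of 0.05 against E8.5 WT where edgeR placed 0. With a minimum of 50 counts, 6 motile cilia genes were called in place of 11, since only 17 genes were then tested. Leaving out each KO library in turn gave 0 to 1 genes lower than E8.5 WT and 1 to 3 genes higher than E7.5 WT. Without KO1, Shh was lower than E8.5 WT by a log2 difference of -2.73, and without KO2 the difference was 0.24, so KO2 alone decides its direction. Without KO2, Foxa1, Shh and Dand5 were above E7.5 WT. Across those 2 settings the motile cilia count was 12 to 13, and Foxj1 stayed called.

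The scaling alternatives moved the median of all genes by at most 0.063 on the log2 scale (plain CPM, KO1 against E8.5 WT). Over all genes edgeR called 8 without the count minimum and 1 in the fit of the KO and E8.5 WT libraries alone, against 0. Leaving out a KO library leaves no residual degrees of freedom, so that edgeR test gave no value. No paired analysis was possible because each WT stage has 1 library and shares fewer than 2 replicate numbers with the KO group. For Dnah11, with 60 to 69 reads, counting error alone spans -0.12 to 0.91 for KO1 against E8.5 WT.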
